A study of Mus musculus with 12 samples.

Results

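The Jun and Fos genes encode the subunits of AP-1. Their 7 genes, Fos, Fosb, Fosl1, Fosl2, Jun, Junb and Jund, were chosen by name, with earlier results of these data known. So were the gene lists used below. All 7 genes were measured among the 18193 genes tested, by 11 of 34945 probe sets. AP-1 is a dimer of leucine zipper proteins that binds a short palindromic DNA element. Jun proteins pair with each other or with a Fos protein, whereas Fos proteins need a Jun partner. Mitogen and stress kinases raise the transcription of several of these genes within minutes and also phosphorylate their products, and in epidermis AP-1 regulates keratinocyte proliferation and differentiation, matrix proteases and inflammatory mediators.

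Whole back skin was profiled from 4 groups of mice with 3 arrays each. These were Ahr-/- mice on day 2 of imiquimod (IMQ), Ahr+/- littermates on day 2 of IMQ, untreated Ahr-/- mice and untreated Ahr+/- mice, the last 2 collected on day 0. Ahr encodes the aryl hydrocarbon receptor, a ligand-activated transcription factor. The deletion is present in all cells of Ahr-/- mice, and the Ahr+/- controls themselves carry 1 null allele, so no group had 2 intact copies of Ahr. IMQ, an agonist of Toll-like receptor 7 in mice, was applied as a cream on shaved back skin every day. Untreated mice stand for day 0 and no vehicle cream group is among the 12 arrays, so imiquimod, its cream and the repeated application cannot be told apart. The labels give no strain, sex or age. The series' design text calls the skin explants, while the protocols describe snap-freezing at collection, so any time in between is not settled for transcripts as short-lived as that of Fos.

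The main Ahr probe set had signals of 9.07 to 9.87 in IMQ-treated Ahr-/- skin and 9.79 to 10.27 in IMQ-treated Ahr+/- skin, against 11.29 to 11.44 in untreated Ahr-/- skin and 10.11 to 11.30 in untreated Ahr+/- skin. The sources used here do not say where its probes lie relative to the deletion, so Ahr does not check the genotype labels. Replicates 1 and 2 of IMQ-treated Ahr-/- skin stood apart. The 3' probe set of Gapdh exceeded its 5' probe set by 1.17 and 1.52 in them, against 0.14 to 0.53 in the other 10 arrays. A wide gap of this kind is a usual sign of shortened RNA. Keratinocyte markers (Krt5, Krt14, Krt1, Krt10 and Trp63) averaged 12.17 to 13.71 in all 12 arrays, which fits the label of skin. Markers of the growing hair follicle (Krt71, Krt25, Krt27, Krt28, Krt35 and Tchh) averaged 13.33 in replicate 2 of untreated Ahr+/- skin, against 5.42 to 9.61 elsewhere.

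Promoter sequence was at hand for 6 of the 7 genes. The 130 bases upstream of the annotated start are shown for the 4 whose window holds a searched element, because elements of these kinds are known to take part in switching on Jun and Fos genes. The sequences are RefSeq's on GRCm38.p6, printed in the direction of transcription, with matches in capitals. In Fos, at chr12:85473760-85473889 on the plus strand, the capitals are 2 cores of the cyclic AMP response element (CRE), TGACG, and the TATA box, TATAAA. In Fosb, at chr7:19310046-19310175 on the minus strand, they are 1 such core. In Jun, at chr4:95052223-95052352 on the minus strand, they are a CCAAT box and the Jun-type AP-1 element TGACATCA. In Junb, at chr8:84978749-84978878 on the minus strand, they are 1 CRE core and a CCAAT box.
Fos: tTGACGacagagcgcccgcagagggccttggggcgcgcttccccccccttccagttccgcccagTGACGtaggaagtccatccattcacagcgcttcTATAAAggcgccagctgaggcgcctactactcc
Fosb: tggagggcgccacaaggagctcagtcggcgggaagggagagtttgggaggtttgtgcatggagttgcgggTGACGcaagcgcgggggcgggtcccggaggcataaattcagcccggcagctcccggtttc
Jun: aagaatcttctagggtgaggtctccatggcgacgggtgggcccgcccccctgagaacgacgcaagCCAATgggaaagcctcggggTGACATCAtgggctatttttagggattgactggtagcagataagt
Junb: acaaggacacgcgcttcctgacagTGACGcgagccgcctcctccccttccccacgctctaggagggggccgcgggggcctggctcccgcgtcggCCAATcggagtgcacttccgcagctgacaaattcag

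The TGACATCA of Jun, through which Jun is known to bind its own promoter, begins 45 bases before the start and occurs in 3.02% of 27025 promoters searched over 250 upstream bases on both strands. In Fos the CRE cores begin 129 and 66 bases and the TATA box 33 bases before the start. The CRE core occurs in 17.9% of promoters, which includes those with the full CRE, and TATAAA in 13%. The CCAAT box, 65 bases before the start of Jun and 36 before that of Junb, occurs in 34.5%. None of the 6 windows of 250 bases held the common AP-1 element TGACTCA (4.43% of promoters), the full CRE TGACGTCA (1.62%), the CArG box of serum response factor (1.40%) or TNGCGTG, the element of the aryl hydrocarbon receptor (4.16%). These are matches of letters within this window and nothing more.

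After 2 days of IMQ, Fosl1 and Junb rose in both genotypes. On its main probe set Jund fell in Ahr-/- skin, but its further probe set rose there. A gene was called where limma's adjusted p, over all genes of a comparison, was under 0.05 and the fold change at least 1.5. In Ahr-/- skin 3 of the 7 genes were called, 2 higher and 1 lower, where 22.7% of all genes were called, 10.6% higher and 12.1% lower. In Ahr+/- skin 2 were called, both higher, where 9.05% of all genes were, 5.22% higher and 3.83% lower. An unadjusted p under 0.05 was reached by 5 of the 7 in Ahr-/- skin, where 38.7% of all genes reached it, and by 4 in Ahr+/- skin, where 24.9% did. The median log2 difference over the 7 genes was 0.88 in Ahr-/- skin and 1.04 in Ahr+/- skin, against 0.07 and -0.01 over all genes. In each genotype treated and untreated arrays did not overlap for 5 of the 7, while 42.7% of all genes showed this in Ahr-/- skin and 29.8% did in Ahr+/- skin.

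Fosl1 encodes Fra-1, a Fos protein without the C-terminal activation domain of Fos that is induced later than Fos and itself by AP-1. Its main probe set (1417487_at) read 8.42, 8.57 and 7.62 in IMQ-treated Ahr-/- skin, against 4.72, 5.11 and 5.11 in untreated Ahr-/- skin. It read 7.23, 7.16 and 8.32 in IMQ-treated Ahr+/- skin, against 5.004, 5.44 and 5.49 in untreated Ahr+/- skin. All 6 IMQ arrays lay above all 6 untreated arrays, and by more than any 2 arrays of 1 group differed. Fosl1 rose by 3.22 (standard error 0.31, adjusted p = 2.17e-05) in Ahr-/- skin, a 9.34-fold difference in signal, and by 2.26 (standard error 0.31, adjusted p = 0.000831) or 4.79-fold in Ahr+/- skin. The Ahr-/- change lay at the 99.5th percentile of all genes and the Ahr+/- change at the 99.3rd. With replicate 3 alone for IMQ-treated Ahr-/- skin, that is without both arrays of the wide Gapdh gap, the difference was 2.64 (standard error 0.41, adjusted p = 0.00664). In this and every fit below on replicate 3 alone, that array is assumed to vary like those of the other groups.

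**Figure D1:**
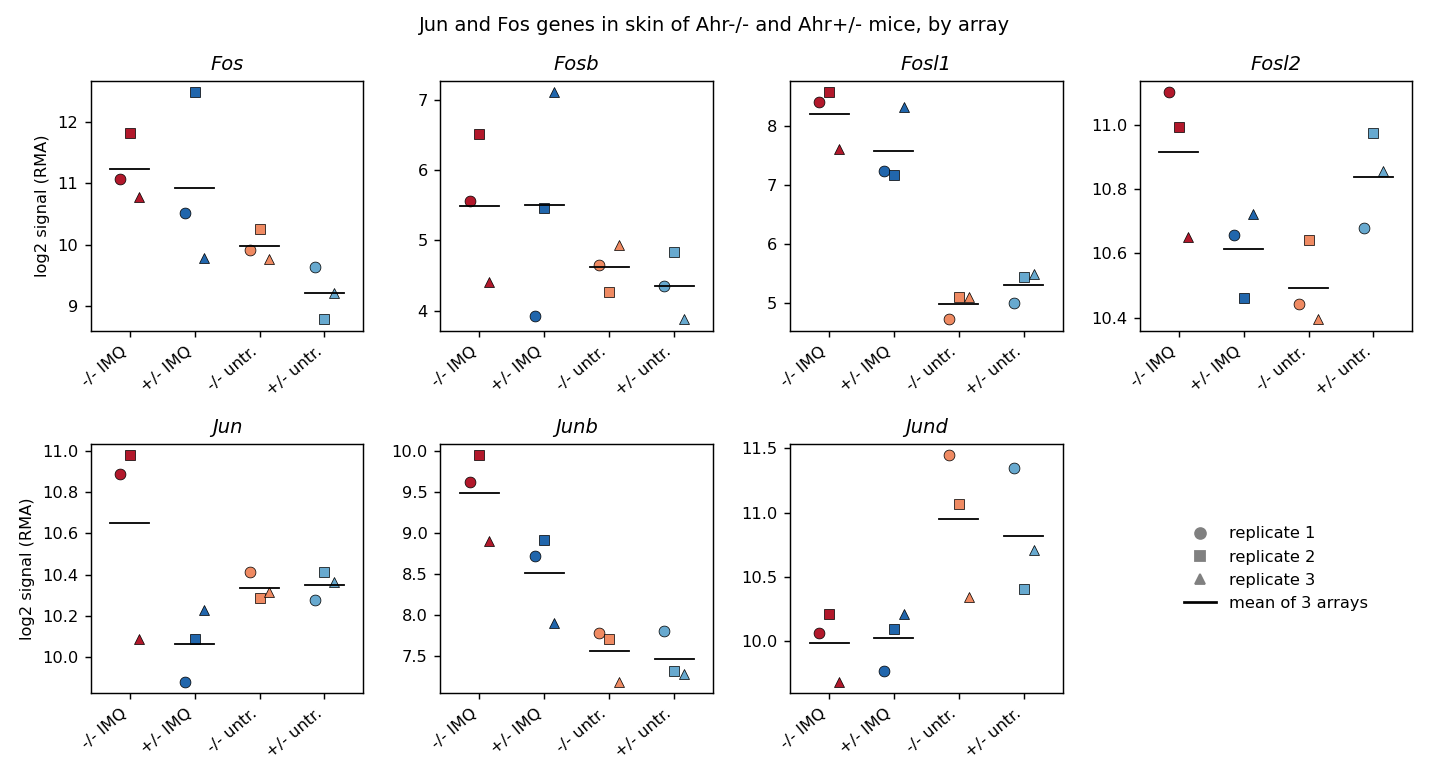
Log2 RMA signal (vertical axis, its range set for each gene) of the main probe set of the 7 genes in each of 12 arrays, with IMQ-treated Ahr-/- and Ahr+/- skin on the left and untreated Ahr-/- and Ahr+/- skin on the right of each panel. Symbols give the replicate and bars the mean of 3 arrays. Fosl1 shows a wide gap between IMQ arrays (7.16 to 8.57) and untreated arrays (4.72 to 5.49), and the Fos and Fosb panels show the widest scatter within groups.

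Fos, the immediate early member whose mRNA is short-lived, was higher after IMQ on average but was not called in either genotype in the model of all 4 groups. It read 11.07, 11.83 and 10.78 in IMQ-treated Ahr-/- skin, against 9.92, 10.26 and 9.77 in untreated Ahr-/- skin. It read 10.52, 12.49 and 9.78 in IMQ-treated Ahr+/- skin, against 9.64, 8.78 and 9.20 in untreated Ahr+/- skin. The arrays did not overlap in either genotype, yet the 3 IMQ-treated Ahr+/- arrays spanned 2.70. The difference was 1.25 (95% interval 0.10 to 2.39, adjusted p = 0.101) in Ahr-/- skin and 1.72 (0.58 to 2.87, adjusted p = 0.0577) in Ahr+/- skin. Fos was called in Ahr-/- skin when only the groups compared were modelled (1.25, adjusted p = 0.00444) or without the highest array, replicate 2 of IMQ-treated Ahr+/- skin (1.25, adjusted p = 0.0118). It was called in Ahr+/- skin with each array centred on its median (1.71, adjusted p = 0.0493) or without replicate 3 of IMQ-treated Ahr+/- skin (2.30, adjusted p = 0.0177).

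Fosb, an immediate early relative of Fos, gave dim and scattered signals. They were 5.56, 6.52 and 4.40 in IMQ-treated Ahr-/- skin, against 4.65, 4.27 and 4.94 in untreated Ahr-/- skin. In IMQ-treated Ahr+/- skin they were 3.93, 5.46 and 7.11, against 4.35, 4.83 and 3.88 in untreated Ahr+/- skin. The groups overlapped in both genotypes, and the difference was 0.88 (95% interval -0.56 to 2.31, adjusted p = 0.36) in Ahr-/- skin and 1.15 (-0.29 to 2.58, adjusted p = 0.319) in Ahr+/- skin. The SD within groups, pooled over the 4 groups, was 1.00 for Fosb and 0.79 for Fos, above that of 99.4% and 98.9% of genes, whose median was 0.22.

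Fosl2 encodes Fra-2, the other Fos protein without that activation domain. It differed little on its main probe set (1437247_at), with 11.10, 10.99 and 10.65 in IMQ-treated Ahr-/- skin, against 10.44, 10.64 and 10.39 in untreated Ahr-/- skin. In Ahr+/- skin it read 10.66, 10.46 and 10.72 after IMQ, against 10.68, 10.97 and 10.86 untreated. All 3 treated arrays lay above the untreated ones in Ahr-/- skin, where the difference was 0.42 (95% interval 0.09 to 0.76, adjusted p = 0.0586). The Ahr+/- groups overlapped and the difference was -0.22 (-0.56 to 0.11, adjusted p = 0.413).

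Junb, a Jun protein that activates transcription more weakly than Jun and can oppose it, rose in both genotypes. It read 9.62, 9.95 and 8.91 in IMQ-treated Ahr-/- skin, against 7.79, 7.72 and 7.19 in untreated Ahr-/- skin. It read 8.72, 8.91 and 7.90 in IMQ-treated Ahr+/- skin, against 7.81, 7.32 and 7.29 in untreated Ahr+/- skin. The groups did not overlap in either genotype, although the lowest treated array (7.90) and the highest untreated array (7.81) of Ahr+/- skin lay close together. Junb rose by 1.93 (standard error 0.31, adjusted p = 0.000705) or 3.81-fold in Ahr-/- skin, and by 1.04 (standard error 0.31, adjusted p = 0.0499) or 2.06-fold in Ahr+/- skin.

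The Ahr+/- call of Junb sat at the threshold. It was lost when any of 8 arrays was left out, with adjusted p from 0.0501 to 0.185, and these were replicates 1 and 2 of IMQ-treated Ahr+/- skin, replicates 2 and 3 of untreated Ahr+/- skin, all 3 of untreated Ahr-/- skin and replicate 1 of IMQ-treated Ahr-/- skin. With replicate 3 alone of IMQ-treated Ahr-/- skin, Junb differed by 1.34 from untreated Ahr-/- skin (adjusted p = 0.0691), with a standard error of 0.39 against 0.31 with all 3 arrays.

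Jun, the member with the strongest activation domain and a target of the Jun N-terminal kinases, was not called in either genotype. It read 10.89, 10.98 and 10.09 in IMQ-treated Ahr-/- skin, against 10.41, 10.28 and 10.31 in untreated Ahr-/- skin. It read 9.88, 10.09 and 10.23 in IMQ-treated Ahr+/- skin, against 10.28, 10.41 and 10.36 in untreated Ahr+/- skin. Of the treated arrays, 2 lay above and 1 below every untreated array in Ahr-/- skin, whereas all 3 lay below in Ahr+/- skin. The difference was 0.32 (95% interval -0.13 to 0.76, adjusted p = 0.28) in Ahr-/- skin and -0.29 (-0.73 to 0.16, adjusted p = 0.432) in Ahr+/- skin. Without replicate 3 of IMQ-treated Ahr-/- skin, Jun was called higher in Ahr-/- skin (0.60, adjusted p = 0.00979), and with replicate 3 alone the difference was -0.25.

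Jund, the broadly expressed Jun gene that is little induced by mitogens, was lower after IMQ on its main probe set (1449117_at). It read 10.06, 10.21 and 9.68 in IMQ-treated Ahr-/- skin, against 11.45, 11.07 and 10.34 in untreated Ahr-/- skin. It read 9.76, 10.10 and 10.21 in IMQ-treated Ahr+/- skin, against 11.35, 10.40 and 10.71 in untreated Ahr+/- skin. Here the untreated arrays were the scattered ones, and treated and untreated arrays did not overlap. Jund fell by 0.97 (standard error 0.29, adjusted p = 0.0253) in Ahr-/- skin, and the difference was -0.80 (95% interval -1.43 to -0.17, adjusted p = 0.104) in Ahr+/- skin. The Ahr-/- call was lost without replicate 1 or 2 of untreated Ahr-/- skin or replicate 1 or 3 of IMQ-treated Ahr-/- skin, with adjusted p from 0.0572 to 0.116, and without replicate 2 of untreated Ahr+/- skin Jund was also called in Ahr+/- skin (-1.01, adjusted p = 0.0398).

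Fosl1, Fosl2, Jun and Jund had a further probe set each, and these did not all follow the main one. For Jund the further set (1440265_at) ran the other way. The further set read 4.39, 4.97 and 4.81 in IMQ-treated Ahr-/- skin, against 3.95, 3.84 and 4.33 in untreated Ahr-/- skin. It rose by 0.68 there (standard error 0.22, adjusted p = 0.044 over all probe sets). In Ahr+/- skin the further Jund set differed by 0.28 (95% interval -0.20 to 0.77, adjusted p = 0.482). With the mean of both sets, which weighs the dim set and the bright set alike, Jund differed by -0.14 in Ahr-/- skin (adjusted p = 0.474). The direction of Jund was not settled by these arrays.

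The further Fosl1 set (1417488_at) rose with the main one, by less. It read 5.46 in all 3 IMQ-treated Ahr-/- arrays, against 4.52 to 4.998 in untreated Ahr-/- skin, and 5.37 to 5.68 in IMQ-treated Ahr+/- skin, against 4.55 to 4.63 in untreated Ahr+/- skin. The difference was 0.67 (adjusted p = 0.00613) in Ahr-/- skin and 0.91 (adjusted p = 0.00265) in Ahr+/- skin. The further Jun set (1448694_at) differed by 0.04 (95% interval -0.27 to 0.34) in Ahr-/- skin and by -0.29 (-0.60 to 0.01) in Ahr+/- skin, and neither was called.

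**Figure D2:**
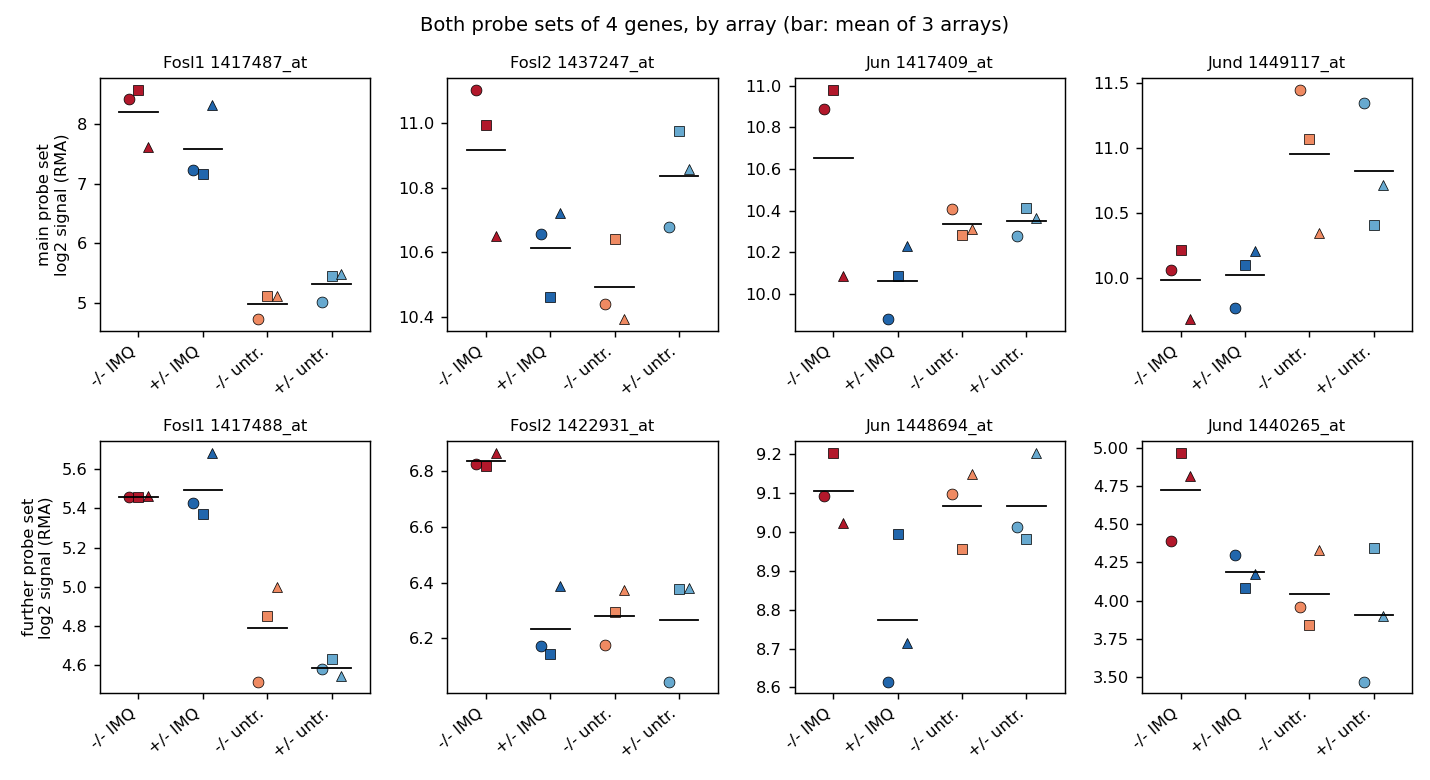
Log2 RMA signal (vertical axis, its range set for each panel) of the main probe set (top) and the further probe set (bottom) of Fosl1, Fosl2, Jun and Jund in each array, with IMQ-treated Ahr-/- and Ahr+/- skin left of untreated Ahr-/- and Ahr+/- skin. Circles, squares and triangles are replicates 1, 2 and 3 and bars the mean of 3 arrays. The Jund sets move in opposite directions after IMQ in Ahr-/- skin, -0.97 on the main set and 0.68 on the further set.

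The comparison of Ahr-/- with Ahr+/- skin on day 2 asks whether loss of the receptor alters the genes' levels in inflamed skin. None of the 7 genes was called on its main probe set, by limma or by the rank product, where limma called 3.98% of all genes, 2.12% higher and 1.86% lower in Ahr-/- skin. An unadjusted p under 0.05 was reached by 2 of the 7, Jun and Junb, and by 21.0% of all genes. The median log2 difference over the 7 genes was 0.30, against 0.06 over all genes. On the main probe sets the 2 groups of arrays were apart in none of the 7, as they were in 33.0% of all genes.

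Junb had the largest day 2 difference of the 7 genes on the log2 scale, 0.98 (95% interval 0.32 to 1.65, adjusted p = 0.0931). Its Ahr-/- arrays read 9.62, 9.95 and 8.91 and its Ahr+/- arrays 8.72, 8.91 and 7.90, so that replicate 3 of Ahr-/- skin sat level with replicate 2 of Ahr+/- skin. Jun differed by 0.59 (95% interval 0.14 to 1.03, adjusted p = 0.125), with 10.89, 10.98 and 10.09 in Ahr-/- skin and 9.88, 10.09 and 10.23 in Ahr+/- skin. The 2 high Jun arrays on this main set are the arrays with the wide Gapdh gap. The further Jun set (1448694_at) read 9.09, 9.20 and 9.02 in Ahr-/- skin and 8.61, 8.996 and 8.71 in Ahr+/- skin, without overlap. It differed by 0.33 (95% interval 0.03 to 0.64, adjusted p = 0.203 over all probe sets) and was not called. With the Gapdh gap as a covariate, the main sets differed by -0.0048 for Jun (standard error 0.18) and 0.46 for Junb (standard error 0.41). Neither was called.

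Without replicate 3 of Ahr-/- skin, both Jun (0.87, adjusted p = 0.00697) and Junb (1.28, adjusted p = 0.0286) were called higher in Ahr-/- skin. With Ahr-/- replicate 3 alone, set against all 3 Ahr+/- arrays, the differences were 0.02 for Jun and 0.40 for Junb. For Junb, replicate 3 was the lowest array in each of the 4 groups. It read 8.91 in IMQ-treated Ahr-/- skin and 7.90 in IMQ-treated Ahr+/- skin. The day 2 calls of these 2 genes changed when replicate 3 was left out, and the part of RNA quality in them was not tested beyond these fits.

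Fosl1 differed by 0.63 (95% interval -0.05 to 1.31, adjusted p = 0.269) on day 2, with replicate 3 of Ahr+/- skin at 8.32, inside the Ahr-/- range of 7.62 to 8.57. Fos differed by 0.30 (-0.85 to 1.44), Fosl2 by 0.30 (-0.03 to 0.63), Fosb by -0.01 (-1.45 to 1.43) and Jund by -0.04 (-0.67 to 0.59), with adjusted p from 0.284 to 0.996. As folds, the interval ran from 0.556 to 2.72 for Fos and from 0.367 to 2.70 for Fosb, so differences of that size could not be told from none.

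The further Fosl2 set (1422931_at) was the only 1 of the 11 probe sets called between the genotypes on day 2. It read 6.83, 6.82 and 6.87 in IMQ-treated Ahr-/- skin, against 6.17, 6.14 and 6.39 in IMQ-treated Ahr+/- skin, 6.18 to 6.37 in untreated Ahr-/- skin and 6.04 to 6.38 in untreated Ahr+/- skin. The 3 IMQ-treated Ahr-/- arrays lay close together and above all 9 others, replicate 3 included. The day 2 difference was 0.60 (standard error 0.14, adjusted p = 0.034 over all probe sets), just past the fold minimum, while the main Fosl2 set differed by 0.30 (adjusted p = 0.297 in that fit). In Ahr-/- skin the further set was 0.56 higher after IMQ (adjusted p = 0.0117), short of the fold minimum.

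In untreated skin none of the 7 genes was called by limma or by the rank product, where limma called 0.0055% of all genes. Only Fosl2 had an unadjusted p under 0.05, which 6.49% of all genes had, and the arrays did not overlap for Fos and Fosl2, as for 8.81% of all genes. Fos read 9.92, 10.26 and 9.77 in Ahr-/- skin and 9.64, 8.78 and 9.20 in Ahr+/- skin, a difference of 0.78 (95% interval -0.37 to 1.92, adjusted p = 0.816). Fosl2 read 10.44, 10.64 and 10.39 in Ahr-/- skin and 10.68, 10.97 and 10.86 in Ahr+/- skin, a difference of -0.34 (-0.68 to -0.01, adjusted p = 0.756), and its further set differed by 0.01. The other 5 genes differed by -0.33 to 0.26.

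The response to IMQ in Ahr-/- skin minus that in Ahr+/- skin was called for none of the 7 genes, where limma called 1.32% of all genes, 0.539% above and 0.786% below 0. For 2, Fosl1 and Fosl2, the unadjusted p was under 0.05, as for 17.5% of all genes. No rank product was run for it. The response was larger in Ahr-/- skin by 0.96 (95% interval 0.00 to 1.92, adjusted p = 0.285) for Fosl1, by 0.89 (-0.05 to 1.83, adjusted p = 0.312) for Junb, by 0.65 (0.17 to 1.12, adjusted p = 0.155) for Fosl2 and by 0.60 (-0.02 to 1.23, adjusted p = 0.305) for Jun, none past the threshold. For Fos the value was -0.48, for Fosb -0.27 and for Jund -0.17. Thus the call of Jund in Ahr-/- skin alone is no sign that the genotypes differed in Jund.

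**Figure D3:**
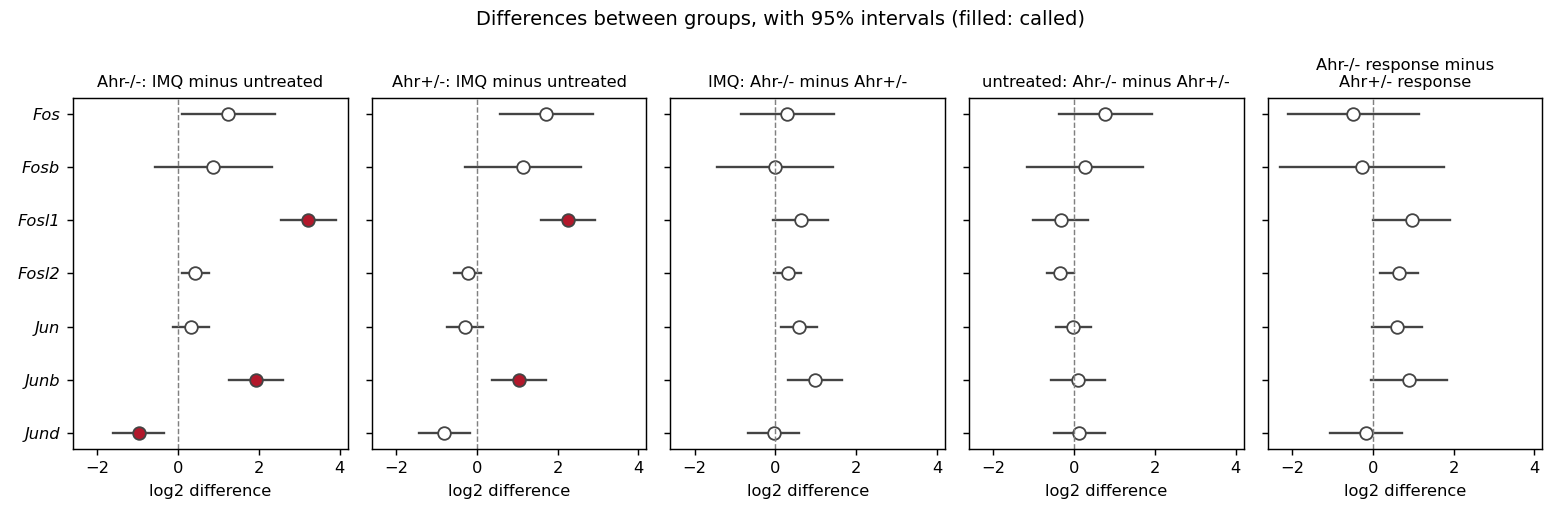
Log2 difference (horizontal axis, the same range in each panel) of the main probe set of the 7 genes in 5 comparisons, from left to right IMQ against untreated skin in Ahr-/- and in Ahr+/- mice, Ahr-/- against Ahr+/- skin after IMQ and untreated, and the difference of the 2 responses. Points are estimates, lines 95% intervals from limma, and filled points were called. Filled points are Fosl1, Junb and Jund in Ahr-/- skin and Fosl1 and Junb in Ahr+/- skin, and no point is filled between the genotypes.

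Group means of neutrophil markers, like those of Fosl1 and Junb, were highest in IMQ-treated Ahr-/- skin, then in IMQ-treated Ahr+/- skin. The mean of 6 of 8 listed neutrophil genes (Csf3r, Cxcr2, Mmp8, Ngp, Camp and Stfa2l1) ranged from 9.45 to 9.58 in IMQ-treated Ahr-/- skin, from 7.06 to 8.28 in IMQ-treated Ahr+/- skin, from 5.51 to 5.71 in untreated Ahr-/- skin and from 5.30 to 5.85 in untreated Ahr+/- skin. After IMQ all 6 were called higher in Ahr-/- skin, where 22.7% of all genes were called. In Ahr+/- skin 3 were called higher, where 9.05% of all genes were called, and the changes ran from -0.34 (Ngp) to 6.98 (Stfa2l1). On day 2, 4 were called higher in Ahr-/- than in Ahr+/- skin, where 3.98% of all genes were called. These counts come from the main fit, and 2 of the 3 IMQ-treated Ahr-/- arrays have the wide Gapdh gap. In replicates 1, 2 and 3 of IMQ-treated Ahr+/- skin the mean of the 6 genes was 8.28, 7.26 and 7.06. Fosl1 read 7.23, 7.16 and 8.32 in these arrays and Junb 8.72, 8.91 and 7.90. Replicate 3 of IMQ-treated Ahr-/- skin matched the other 2 arrays in this mean (9.47) but was lower in Fosl1 (7.62), Jun (10.09) and Junb (8.91). In bulk skin fewer cells of a type and less RNA per cell cannot be told apart, and the part of neutrophils in these results was not tested.

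**Figure D4:**
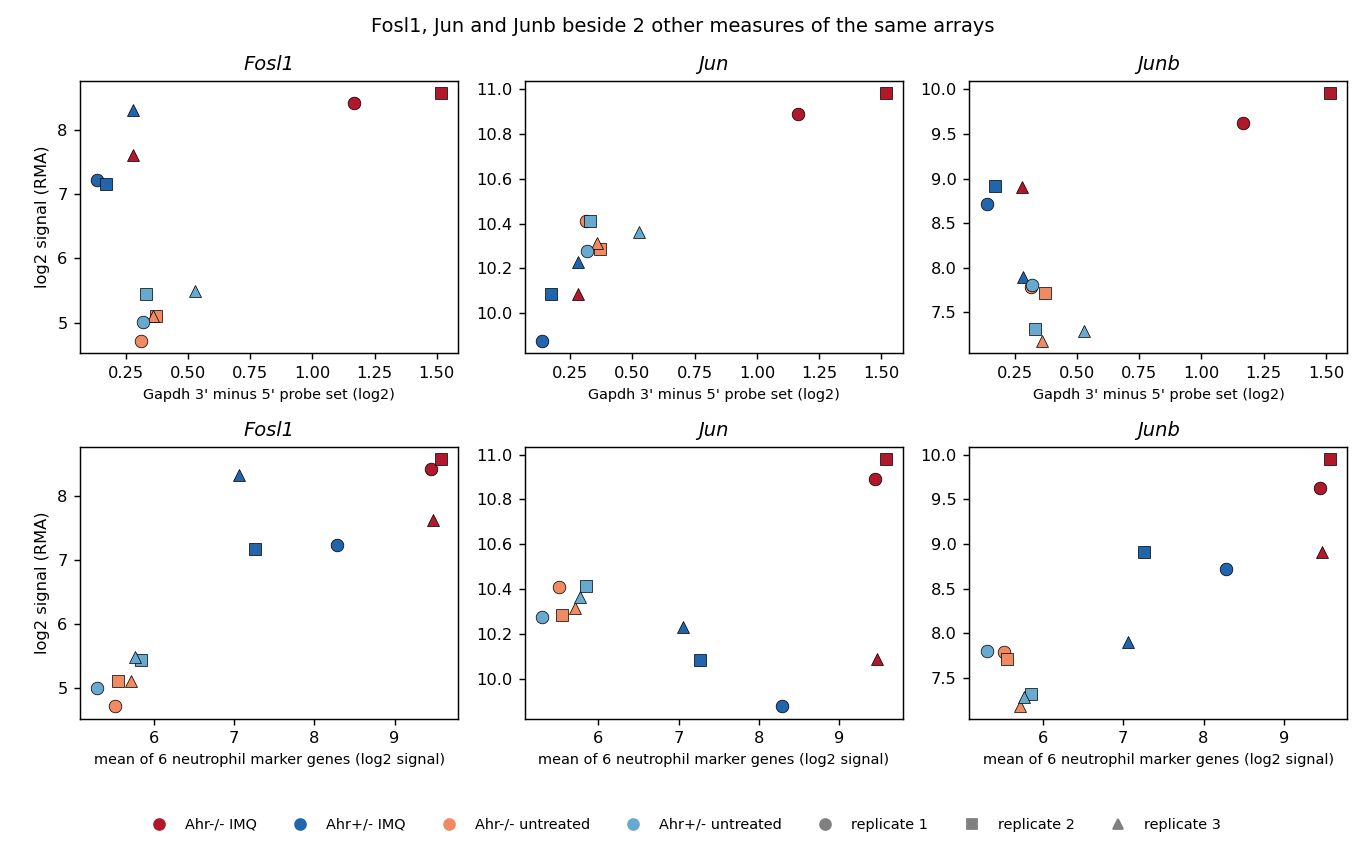
Log2 RMA signal (vertical axes) of Fosl1, Jun and Junb in each of 12 arrays against the log2 gap between the 3' and 5' Gapdh probe sets (top) and against the mean log2 signal of 6 neutrophil genes (bottom). Colours give the group and symbols the replicate. Replicates 1 and 2 of IMQ-treated Ahr-/- skin lie far to the right in the top row, at gaps of 1.17 and 1.52, while all 3 IMQ-treated Ahr-/- arrays lie together at 9.45 to 9.58 in the bottom row.

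Across the 12 arrays, which share the 4 groups, the genes most like each member by Pearson's r were Bdkrb2 (0.98) and Tagln2 (0.97) for Fosl1, H13 (0.97) and Nol9 (0.97) for Junb, and Itpr3 (0.98) and Inf2 (0.97) for Jund. For Jun they were Fxr2 (0.98) and Nkiras2 (0.95), for Fosl2 Safb (0.92) and Klf13 (0.91), and for Fos Irak2 (0.86) and Samd11 (0.86). For Fosb they were Nr4a1 (0.91), which encodes an immediate early nuclear receptor, and Acbd7 (0.90), whose signals spanned only 3.30 to 3.81. After the group means were taken out, r was 0.98 for Jun with Fxr2 and 0.89 for Fosb with Nr4a1. Fxr2 and Nr4a1 were picked by r over these same 12 arrays, so these values are no separate test of a link within groups. For Jun, the spread within a group was widest in IMQ-treated Ahr-/- skin. There replicates 1 and 2, with the wide Gapdh gap, read 10.89 and 10.98, and replicate 3 read 10.09. The part of RNA quality in the Jun pair was not tested. Among the members, Fos and Junb had r = 0.84, and 0.75 within groups, whereas Fosl1 and Junb had r = 0.82, and -0.25 within groups.

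Upstream of AP-1, 18 of 21 listed kinase and regulator genes were measured. In Ahr-/- skin 2 rose and 3 fell after IMQ, where 22.7% of all genes were called, with a median of 0.18 against 0.07 over all genes. With replicate 3 alone for IMQ-treated Ahr-/- skin, or with the Gapdh gap as a covariate, none was called higher and 3 were called lower (Creb1, Map2k6 and Map3k1). Elk3, an ETS factor of the serum response element, rose by 1.20 (adjusted p = 0.00835) and Map3k5, a stress kinase kinase kinase, by 0.78 (adjusted p = 0.0237). Creb1, which binds the CRE, fell by 0.97 (adjusted p = 0.000199), and Map3k1, upstream of the Jun N-terminal kinases, fell by 0.90 (adjusted p = 0.00042) in Ahr-/- skin. Map3k1 alone was called in Ahr+/- skin, where 9.05% of all genes were, with a fall of 0.80 (adjusted p = 0.00277). The median there was 0.14 against -0.01 over all genes. In the same skin Creb1 (-0.49, adjusted p = 0.0306) and Map2k4 (0.53, adjusted p = 0.0499) missed a call by the fold minimum alone. None of the 18 was called between the genotypes on day 2, where 3.98% of all genes were called, or untreated, where 0.0055% were. On day 2 Creb1 differed by -0.58 (adjusted p = 0.0268) and was kept from a call by the fold minimum alone.

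All 15 listed genes of MAP kinase phosphatases and feedback inhibitors were measured. After IMQ 4 rose and 2 fell in Ahr-/- skin, where 22.7% of all genes were called, with a median of 0.31 against 0.07 over all genes. In the same skin 2 were called higher and 3 lower with the Gapdh gap as a covariate, and none higher and 1 lower (Spred2) with replicate 3 alone. In Ahr+/- skin 1 rose and 2 fell, where 9.05% of all genes were called, with a median of -0.09 against -0.01, and Spred2 alone was called with the covariate. In Ahr-/- skin Dusp6 and Dusp5, whose products inactivate ERK, rose by 1.33 (adjusted p = 0.00128) and 1.27 (adjusted p = 0.00105), and Spry1 and Spred2, inhibitors of Ras signalling, fell by 1.06 (adjusted p = 0.00254) and 0.77 (adjusted p = 0.000462). Dusp7, another ERK phosphatase gene, rose by 0.76 (adjusted p = 0.0315) in Ahr+/- skin, where Dusp10, a phosphatase gene of the stress kinases, fell by 0.65 (adjusted p = 0.039) and Spred2 by 0.63 (adjusted p = 0.00489). Between the genotypes on day 2, Ahr-/- skin had more Dusp5 (0.84, adjusted p = 0.0474) and Spry2 (0.68, adjusted p = 0.0386) and less Dusp4 (-1.10, adjusted p = 0.0173), where 3.98% of all genes were called. None of these 3 was called with the Gapdh gap as a covariate, which gave differences of 0.42 for Dusp5, 0.43 for Spry2 and -0.996 for Dusp4, or with replicate 3 alone. The test of the 2 responses called none of the 15, where 1.32% of all genes were called. The 15 are too few to be set apart from that share.

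Of 23 listed AP-1 target genes of skin, 22 were measured. After IMQ 13 rose and 2 fell in Ahr-/- skin, where 22.7% of all genes were called, with a median of 1.59 against 0.07 over all genes. With replicate 3 alone 10 were called higher and none lower, and with the Gapdh gap as a covariate 13 higher and 1 lower. In Ahr+/- skin 9 rose and none fell, where 9.05% of all genes were called, with a median of 0.65 against -0.01. Sprr1b, a cornified envelope precursor, averaged 13.09 in IMQ-treated and 3.29 in untreated Ahr-/- skin, a rise of 9.81 (adjusted p = 1.37e-11), and it rose by 9.11 (adjusted p = 3.42e-11) in Ahr+/- skin. Il6, a cytokine gene with an AP-1 site, rose by 6.21 (adjusted p = 9.61e-07) in Ahr-/- skin and by 3.80 (adjusted p = 0.000104) in Ahr+/- skin. The 2 that fell in Ahr-/- skin were the late differentiation genes Lor, by 3.58 (adjusted p = 0.000913), and Flg, by 2.34 (adjusted p = 0.0382).

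Between the genotypes on day 2, 7 of the 22 target genes had higher signals in Ahr-/- skin and 1 had a lower one, where 3.98% of all genes were called. Of the 3 Ahr-/- arrays in this comparison, 2 have the wide Gapdh gap (1.17 and 1.52), and the count was 2 (Mmp10 and Plaur) with the gap as a covariate and 3 (Mmp10, Plaur and Tnf) with replicate 3 alone, all higher. Over all genes the 724 day 2 calls were 27 with the covariate, and the part of RNA quality was not tested beyond these fits. The matrix metalloproteinase genes Mmp9 and Mmp13 differed by 3.62 (adjusted p = 0.000679) and 3.35 (adjusted p = 0.0164), and Flg by -3.01 (adjusted p = 0.0475). With the gap as a covariate these differences were 3.65 for Mmp9, 4.55 for Mmp13 and -1.57 for Flg, with adjusted p of 0.0594, 0.111 and 0.878. The responses of 5 differed by the test of the difference itself, all larger in Ahr-/- skin, and these were Plaur (2.23, adjusted p = 0.0031), Tnf (1.49, adjusted p = 0.0174), Mmp10 (2.48, adjusted p = 0.028), Timp1 (1.64, adjusted p = 0.0346) and Mmp9 (2.72, adjusted p = 0.042), where 1.32% of all genes were called. Of these, 1 (Plaur) was called with the gap as a covariate and 3 (Mmp10, Plaur and Tnf) with replicate 3 alone. Several of the targets are expressed by neutrophils or macrophages as well as keratinocytes, and 2, Krt5 and Krt14, are also on the keratinocyte marker list. The 7 genes of the AP-1 subunits themselves had no called difference of response, but they are too few to be set apart from that share of 1.32%. Their estimates ran from -0.48 (Fos) to 0.96 (Fosl1, 95% interval 0.00 to 1.92). Those of Fosl1, Fosl2, Jun and Junb were above 0 and those of Fos, Fosb and Jund below 0.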

How the data were processed

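The authors deposited 1 log2 signal for each probe set and array, computed by RMA (R package affy, of a version not stated) from 12 Affymetrix mouse genome arrays. RMA subtracts background, sets all arrays to a common distribution and combines the probes of a set, so a signal is not comparable between genes. Depth has no meaning here, and 3 arrays a group limit the precision. Per the labels, arrays within a group are biological replicates.

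Of 45101 probe sets, 64 controls, 932 sets of several genes and 9160 without a symbol were left out. Each of 18193 genes was represented by its brightest set on average across arrays, without a filter on dim genes. Means of the 4 groups came from 1 linear model in limma 3.58.1 (lmFit, eBayes; R 4.3.3; 8 residual and 4.44 prior degrees of freedom), and two-sided p-values were adjusted over all genes of a comparison (Benjamini-Hochberg). Further probe sets were tested in a fit over all 34945 single-gene sets. Log2 differences are differences of mean log2 signals, and a fold is 2 to that power. The comparisons share groups of arrays, so their calls are not independent of each other. Promoters were searched in RefSeq windows of GRCm38.p6.

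The 7 genes and all lists were chosen with earlier results of these data known. The rule named all 7 genes with all their probe sets, the 2 genes most correlated with each, up to 2 called genes a direction from each list and comparison, and the markers. Cop1 and the 5 target genes with a called difference of response were named after their values were seen. Results were recomputed with an adjusted p under 0.01, no fold minimum, array weights, array centring, a second quantile normalization, robust priors with a variance trend, the mean over a gene's probe sets, a mean signal of at least 5, only the compared groups in the model, a replicate block, the Gapdh gap as a covariate, leaving out arrays (for the lists, the covariate and replicate 3 alone were added after seeing the data), and the rank product that the study's methods name (pfp under 0.01, fold at least 1.5), rewritten here (Python 3.11.15, numpy 2.4.6) with 100 permutations. The steps were tested on simulated data. Tables and figures used pandas 2.3.3 and matplotlib 3.10.9.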

Additional observations from a re-analysis of the deposited data

How the results depend on the processing

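Fosl1 kept its call in both genotypes under all 25 alternatives of limma and under the rank product. The number of the 7 genes called after IMQ in Ahr-/- skin, 3, was 1 when replicate 3 alone stood for IMQ-treated Ahr-/- skin and 1 by the rank product (Fosl1 in both), and 2 to 4 on leaving out 1 array. It was 4, with Fos, when only the compared groups were modelled. In Ahr+/- skin it was 2, and 1 (Fosl1) at an adjusted p under 0.01, with the mean of all probe sets, with a variance trend, with only the compared groups in the model and by the rank product, and 1 to 3 on leaving out 1 array. It was 3, with Fos, on centring the arrays. Between the genotypes on day 2 it was 0, and 2 with array weights (Jun and Junb) and 0 to 2 on leaving out 1 array. For the difference of responses it was 0, and 0 to 1 on leaving out 1 array (Jun at 0.88, adjusted p = 0.036, without replicate 3 of IMQ-treated Ahr-/- skin). In untreated skin it was 0 throughout. Array weights gave Jun 0.64 (adjusted p = 0.0146) and Junb 1.08 (adjusted p = 0.0221).

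With the replicate number as a block, 1 gene, Junb, was called between the genotypes on day 2 (0.98, adjusted p = 0.0213) and Fos was called in Ahr+/- skin (1.72, adjusted p = 0.0409). Deviations of arrays with the same number correlated from -0.18 to 0.32, and 7 of 18 such pairs were over 0.1. Those of arrays with different numbers correlated from -0.36 to 0.24, and 6 of 36 pairs were over 0.1. These values do not settle whether the numbers pair the arrays. Junb in Ahr+/- skin lost its call in 12 of 25 alternatives and Jund in Ahr-/- skin in 8 of 25. Jund in Ahr-/- skin was also not called with the Gapdh covariate (-1.22, adjusted p = 0.0616).

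Differences that changed sign were small or imprecise, and none had been called except Jund in Ahr-/- skin. With the Gapdh covariate Fosb (-0.22) and Jun (-0.16) turned in Ahr-/- skin after IMQ, Fos (-0.16), Fosl1 (-0.10) and Jun (-0.0048) between the genotypes on day 2, Jun untreated (0.0184) and Jun in the difference of responses (-0.0232). With replicate 3 alone Fosb (-0.21) and Jun (-0.25) turned in Ahr-/- skin and Fos (-0.15) on day 2. On the further probe sets Jund turned in Ahr-/- skin (0.68), in Ahr+/- skin (0.28), on day 2 (0.54) and in the difference of responses (0.40), Fosl1 on day 2 (-0.0364), untreated (0.20) and in the difference of responses (-0.24), and Fosl2 (0.0137) and Jun (0.0006) untreated. The mean of all probe sets turned Jund on day 2 (0.25) and in the difference of responses (0.11), centring turned Fosb on day 2 (0.0019) and repeated quantile normalization Jund on day 2 (0.0128). On leaving out 1 array the day 2 difference ran from -0.27 to 1.08 for Fos, from -0.79 to 0.80 for Fosb and from -0.17 to 0.11 for Jund, the untreated difference from -0.0519 to 0.0158 for Jun, from -0.021 to 0.28 for Junb and from -0.11 to 0.44 for Jund, and the difference of responses from -1.05 to 0.30 for Fos, from -1.06 to 0.54 for Fosb and from -0.476 to 0.0762 for Jund. The cause was not tested.

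Over all genes, 4130 were called in Ahr-/- skin, 1646 in Ahr+/- skin, 724 between the genotypes on day 2, 1 untreated and 241 for the difference of responses. Leaving out 1 array gave 3278 to 4477, 901 to 2436, 196 to 1286, 1 to 206 and 31 to 942, and the other alternatives 335 to 5164, 231 to 2563, 27 to 2019, 0 to 59 and 12 to 2096. The lowest day 2 count, 27, came with the Gapdh covariate.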

Other observations

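Of 10 listed ubiquitin ligases and cofactors of Jun and Fos proteins, 8 were measured. After IMQ 1 rose and 3 fell in Ahr-/- skin, where 22.7% of all genes were called, with a median of -0.44 against 0.07 over all genes. None of the 8 was called in Ahr+/- skin, where 9.05% of all genes were. Between the genotypes none was called on day 2, where 3.98% of all genes were, or untreated, where 0.0055% were. A list of 8 genes is too short for the lack of calls to set it apart from these shares. Cop1, whose product marks Jun for degradation, averaged 10.32 in IMQ-treated and 10.98 in untreated Ahr-/- skin and fell by 0.66 (adjusted p = 0.00904 by limma). Nfatc1 and Nfatc2, NFAT factors that bind DNA together with AP-1 in lymphocytes, fell by 1.11 (adjusted p = 0.00863) and 1.10 (adjusted p = 0.00484), and the ubiquitin ligase gene Smurf1 rose by 0.67 (adjusted p = 0.0379). With the Gapdh gap as a covariate, or with replicate 3 alone for IMQ-treated Ahr-/- skin, none of the 8 was called. T cell markers (Cd3e, Cd3d, Cd3g, Cd2 and Thy1) averaged 6.64 to 7.03 in IMQ-treated and 7.80 to 7.90 in untreated Ahr-/- skin. Of these 5, 3 were called lower there. In Ahr+/- skin they averaged 6.56 to 7.23 after IMQ and 7.26 to 8.23 untreated, and 2 were called lower, where 9.05% of all genes were called. Nfatc1 and Nfatc2 differed by -0.39 (adjusted p = 0.412) and 0.05 (adjusted p = 0.93) in Ahr+/- skin. The part of T cells in the falls of Nfatc1 and Nfatc2 was not tested.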
